A study of Mus musculus with 3 samples.

Results

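The 7 genes described here encode the mouse YTH domain readers of m6A (Ythdf1, Ythdf2, Ythdf3, Ythdc1 and Ythdc2) and both m6A demethylases (Fto and Alkbh5). They were taken by gene symbol from the 49997 genes of the RIP-seq count table, under a rule that names the genes and no measured value. All 7 were kept by the filter on low counts, which left 19601 genes. RIP-seq, in which RNA recovered with an antibody is sequenced beside total input RNA, was performed with anti-YTHDF2 in E14 mouse ESCs after 24 h of Dox. The 3 libraries were 1 input and 2 YTHDF2 IP libraries, and every one of them came from Dox-treated cells. The cells carried a tdTomato transgene under the MERVL promoter and a Dox-inducible Dux transgene, which drives ESCs toward a state resembling the 2-cell embryo (2C-like). Both transgenes are described in the study's text and not in the labels of these libraries. The comparison of YTHDF2 IP with input asks which transcripts were recovered with YTHDF2, and here it asks this of the transcripts of the m6A readers and erasers themselves.

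m6A is a methyl mark placed on adenosines of mRNA, often in long internal exons and around stop codons. Proteins with a YTH domain bind the mark through an aromatic pocket. YTHDF1, YTHDF2 and YTHDF3 are cytoplasmic paralogs, of which YTHDF2 is best known for bringing marked transcripts to the CCR4-NOT deadenylase. YTHDC1 is a nuclear reader with roles in splicing, export and the silencing of retroelements in ESCs, and YTHDC2 is a large helicase required for meiosis. FTO and ALKBH5 are dioxygenases of the AlkB family that remove methyl groups from RNA.

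Every library held between 35259827 and 36986994 counts. The counts of paired reads include both mates, so counting intervals are narrower than the number of fragments would give, and they cover counting error only. The input was not replicated, so the spread between libraries is known from the 2 IP libraries alone, with 1 residual degree of freedom per gene. Standard errors of log2 fold changes were derived from the edgeR test, as the absolute log2 fold change over the square root of its F statistic. The edgeR fit pools that spread over genes and adds counting error, so these standard errors are not the spread of a single gene. Nothing in the labels says that the IP libraries came from separate cultures, and p-values may thus measure technical spread. No IP with a control antibody was analysed here, so binding of RNA to beads or antibody was not measured. An IP from cell lysate is given in the methods and one from purified RNA in the labels, and the counts cannot tell these apart. All 9 ESC marker genes stood between 260.9 and 1806 CPM (counts scaled to the library total) in the input. The 8 markers of the 2C-like state reached from 3.92 to 839.6 CPM. Of 7 fibroblast markers, 4 were at or under 3 counts in the input, and the summed level of that list was 29.2 CPM in the input and 16.0 and 17.1 CPM in the IP libraries. The 7 markers of differentiated lineages summed to 12.4, 18.7 and 12.1 CPM in the same order. Input levels average over pluripotent and 2C-like cells, so fewer cells expressing a gene and less RNA per cell cannot be told apart.

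The sequence GGACT is the pentamer best known as a site of m6A, and the instance nearest to the stop codon is shown because it ties the paralogs to each other. In the RefSeq coding sequences on GRCm38.p6 (mm10), Ythdf1 and Ythdf2 each held a GGACT at aligned positions, 305 and 302 bases before the stop codon, in coding exon 4. The aligned stretch of Ythdf3 read AGACT and shared 4 of the 5 motif bases. AGACT also fits DRACH, the wider m6A motif given in the study (D is A, G or U, R is A or G, H is A, C or U). Capitals mark GGACT or, in Ythdf3, the bases aligned with it, and all sequences run 5′ to 3′ on the strand of the transcript. The Fto and Alkbh5 lines show the instance nearest to the stop codon in the erasers, 126 and 683 bases before it.
Ythdf1, chr2:180910956-180910984, minus strand: gaagtcccctgtGGACTacggcaccagcg
Ythdf2, chr4:132204401-132204429, minus strand: gaaatctgctgtGGACTacaacacatgtg
Ythdf3, chr3:16205127-16205155, plus strand: gaagtctgttgtAGACTataatgcttatg
Fto, chr8:91666290-91666318, plus strand: cccgagtcgtccGGACTttaccagtacag
Alkbh5, chr11:60538908-60538936, plus strand: cgacgagatcccGGACTgggtgcatcagc

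Over these 29 bases, Ythdf2 matched Ythdf1 at 21 positions and Ythdf3 at 21 positions. Ythdf3 held its only coding GGACT further upstream, 1174 bases before the stop codon. The coding sequences held 1 GGACT in Ythdf1, Ythdf3 and Fto, 2 in Ythdf2 and Alkbh5, 3 in Ythdc2 and 0 in Ythdc1. The motif is common, since 76.6% of 15188 coding sequences of tested genes held it on the sense strand, and 85.0% of the 2352 that were 1500 to 2000 bases long. No methylation was measured in these libraries, and a match is a description of the sequence only.

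Of the YTH readers and erasers, the transcripts of Ythdf1 and Ythdf2 were enriched in the YTHDF2 IP, and that of Ythdc2 was depleted. Enriched and depleted mean an adjusted p under 0.05 and a change over 2-fold, by edgeR's quasi-likelihood test with Benjamini-Hochberg adjustment over all tested genes. Of all tested genes, 15.2% were enriched and 14% were depleted at these thresholds. With no limit on the fold, all 7 genes passed, as did 58.6% of all tested genes. Of the 7, 4 were higher in the IP (Ythdf1, Ythdf2, Ythdf3 and Alkbh5) and 3 were lower (Ythdc1, Ythdc2 and Fto). At that looser threshold 28.5% of all tested genes were higher and 30.1% lower. Alternatives included removing the trend of the log2 fold change on GC content, on exon density (exons per kilobase) or on coding share. Coding share is the share of the coding sequence held by its longest exon, and this trend was chosen after seeing the data. Each trend was removed from the tested genes with a value, 18598 for GC content and exon density and 15188 for coding share. The number of the 7 that passed was 5 with the trend on GC content or on exon density removed and 0 with the dispersion fixed at 0.1. The median log2 fold change was 0.23 over the 7 genes and 0.01 over all tested genes. Between alternatives the median of the 7 ranged from -0.34 with the trend on coding share removed, through -0.01 with the GC trend removed, to 0.38 with scaling to TPM.

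**Figure D1:**
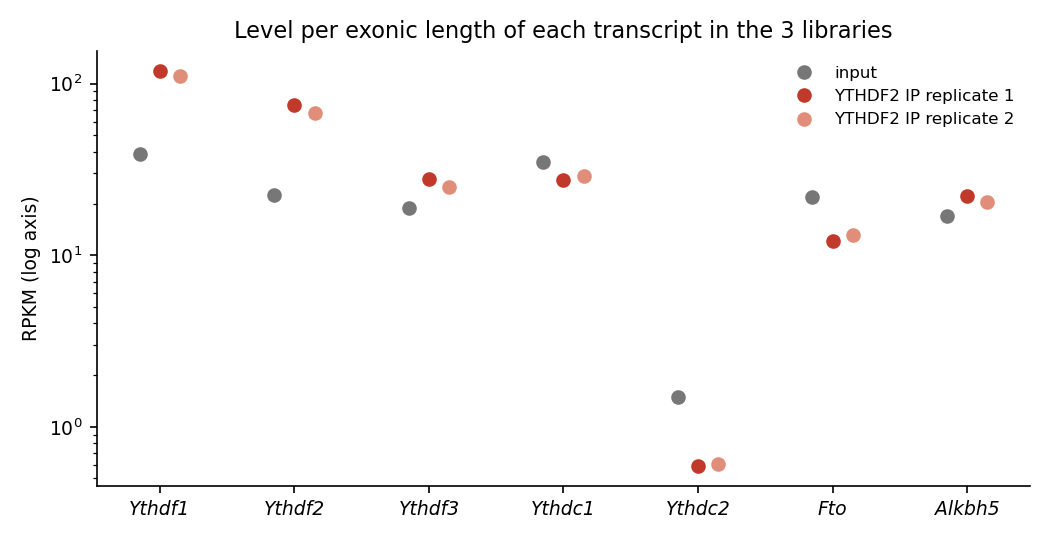
Levels of the 7 transcripts in each library, in RPKM (counts scaled to exonic length and library total, log axis). Each point is 1 library, the input and the 2 YTHDF2 IP libraries. Both IP points lie above the input for Ythdf1, Ythdf2, Ythdf3 and Alkbh5 and below it for Ythdc1, Ythdc2 and Fto.

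Ythdf2 encodes the protein that the antibody recognises. Its gene lies on chromosome 4 from 132184916 to 132212256 (mm10, minus strand). Its level, per length, was 22.4 RPKM in the input and 74.8 and 67.8 RPKM in IP replicates 1 and 2. Both IP libraries stood well above the input, by 1.64 and 1.50 on the log2 scale after TMM scaling. The fitted log2 fold change was 1.57 ± 0.0695 (SE, n = 2 IP and 1 input), or 2.98-fold, with an adjusted p of 4.2e-33 by edgeR's quasi-likelihood test. This placed Ythdf2 at percentile 88.9 of all tested genes. The calls of Ythdf2 and of Ythdf1 were lost under 2 of 13 alternatives, the fixed dispersion and the removal of the trend on coding share.

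Ythdf1, the paralog known for promoting translation of marked transcripts, lies on chromosome 2 from 180904377 to 180920936 (minus strand). It had the highest level of the 7 genes in every library, at 38.8 RPKM in the input and 119.1 and 110.6 RPKM in the IP libraries. The log2 ratios over input were 1.52 and 1.42, and the fitted value was 1.47 ± 0.0645 (SE), or 2.77-fold, with an adjusted p of 2.55e-33 by the same edgeR test. The difference between the log2 fold changes of Ythdf1 and Ythdf2 was -0.10, with a 95% interval from -0.29 to 0.09, which includes 0. With the GC trend removed this difference was -0.36, so whether the pair is told apart depends on that setting.

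Ythdf3, the third cytoplasmic paralog, lies on chromosome 3 from 16183148 to 16217037 (plus strand) and had the smallest change of the 3. It measured 18.8 RPKM in the input and 27.8 and 24.9 RPKM in the IP libraries. Both IP values were above the input, with log2 ratios of 0.47 and 0.31. The fitted log2 fold change of 0.39 ± 0.0733 (SE) had an adjusted p of 3.29e-06 in the edgeR fit, but at 1.31-fold it stayed under the fold threshold. Its value depended on the setting. It was 1.11 and called enriched with the GC trend removed (edgeR adjusted p = 7.66e-23), 0.05 with the trend on exon density removed (0.552), and -0.34 with the trend on coding share removed (3.47e-05). The log2 fold change of Ythdf2 exceeded that of Ythdf3 by 1.18 (95% interval 0.98 to 1.38), and that of Ythdf1 exceeded it by 1.08 (0.89 to 1.27). Each IP library gave a similar gap by itself, 1.18 and 1.19 for Ythdf2 and 1.05 and 1.11 for Ythdf1. With the GC trend removed the gaps were smaller, at 0.64 and 0.28.

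The split among the cytoplasmic readers could also be expressed as shares within each library, where the scaling between libraries cancels. These shares use the same counts as the gaps above, with no trend removed, and are no separate evidence. Ythdf3 made up 31.9% of the counts of the 3 Ythdf genes in the input (Wilson 95% interval 31.1 to 32.8%). In the IP libraries its share was 17.9% (17.4 to 18.3%) and 17.5% (17.0 to 17.9%). Ythdf1 went the other way, from 39.1% of the input counts to 45.4% and 46.1% of the IP counts. The share of Ythdf2 was 29.0% before and 36.7% and 36.4% after IP. Thus Ythdf3 was the only one of the 3 whose share was lower in both IP libraries than in the input. The summed level of the 3 genes was 80.0 RPKM in the input and 221.7 and 203.3 RPKM in the IP libraries.

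**Figure D2:**
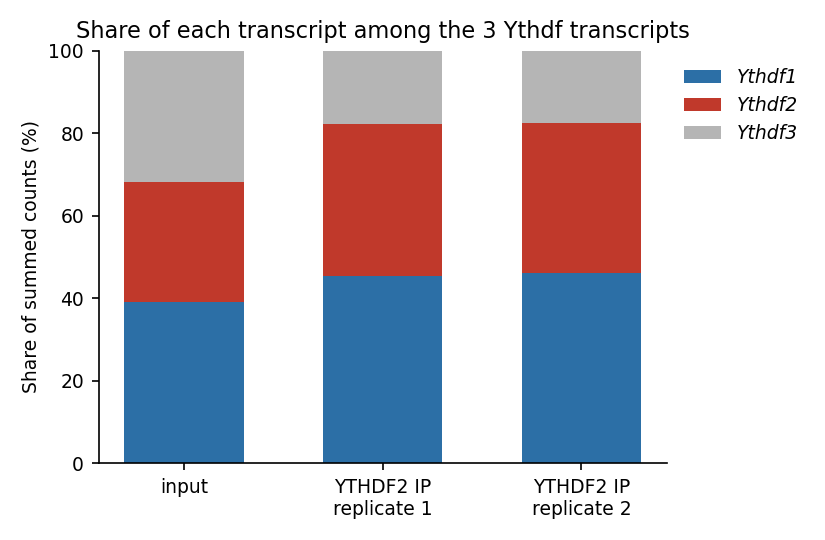
Share (%) of each Ythdf transcript among the summed counts of Ythdf1, Ythdf2 and Ythdf3 in the input and in each YTHDF2 IP library. Bars are stacked from 0 to 100%, with 1 bar per library and no error bars. The share of Ythdf3 is 31.9% in the input, against 17.9% and 17.5% after IP.

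The readers of the YTHDC type were both lower in the IP than in the input. Ythdc1 (chromosome 5, 86803980 to 86836659, plus strand) measured 35.1 RPKM in the input and 27.4 and 28.7 RPKM in the IP libraries. The fit gave -0.42 ± 0.0659 (SE) on the log2 scale (edgeR adjusted p = 5.22e-08), and at 1.34-fold lower it was not called depleted. Its input level was exceeded only by that of Ythdf1 among the 7.

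Ythdc2 (chromosome 18, 44827730 to 44889720, plus strand) was the scarcest transcript of the group. The input gave 400 counts, and the IP libraries gave 151 and 158. Per length this was 1.49 RPKM against 0.592 and 0.609 RPKM. Both IP libraries were low, and the fitted log2 value was -1.41 ± 0.219 (SE), or 2.66-fold lower, with an adjusted p of 3.74e-08 by the edgeR test. Its standard error was the widest of the 7. The call was lost under 3 of 13 alternatives, at -0.90 with the GC trend removed, at -0.97 with the trend on coding share removed, and with the fixed dispersion. The log2 fold change of Ythdc1 exceeded that of Ythdc2 by 0.99 (95% interval 0.54 to 1.45).

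The erasers parted from each other. Fto (chromosome 8, 91313367 to 91668433, plus strand) measured 21.9 RPKM in the input and 12.1 and 13.1 RPKM in the IP libraries. The fit gave -0.89 ± 0.0807 (SE) on the log2 scale (edgeR adjusted p = 1.91e-16). This is 1.85-fold lower, short of the 2-fold threshold, so Fto was not called depleted. Its 95% interval, -1.05 to -0.73, reached past that threshold. With the trend on GC content, exon density or coding share removed, Fto was called depleted, at -1.15, -1.12 and -1.15. Alkbh5 (chromosome 11, 60537683 to 60558512, plus strand) measured 17.0 RPKM in the input and 22.0 and 20.5 RPKM in the IP libraries. The change of Alkbh5 was small, at a log2 value of 0.23 ± 0.0727 (SE, 1.17-fold), with an adjusted p of 0.00551 by the same test. Its direction was not stable, with -0.01 when the GC trend was removed (edgeR adjusted p = 0.956), 0.03 for exon density (0.723) and -0.37 for coding share (9.02e-06).

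The difference between Fto and Alkbh5 was -1.12 on the log2 scale (95% interval -1.33 to -0.90). Within libraries, Alkbh5 made up 50.9% of the pair's input counts and 70.9% and 67.5% of its IP counts. The input held about as many Fto as Alkbh5 reads, and both IP libraries held more of Alkbh5. Of the 21 pairs among the 7 genes, 19 had a 95% interval of the difference that excluded 0. Such a count is no mark of these genes, as the intervals were narrow beside the spread of all tested genes, whose quartiles were -0.72 and 0.81. The share of such pairs among all tested genes was not computed. The exceptions were Ythdf1 with Ythdf2 and Ythdf3 with Alkbh5, whose difference was 0.16 (-0.04 to 0.37). These differences depended on the setting. With the GC trend removed, that of Ythdf3 and Alkbh5 was 1.12, that of Ythdc1 and Alkbh5 went from -0.65 to -0.11, and that of Ythdc2 and Fto turned sign, from -0.52 to 0.25. With the trend on coding share removed, 3 pairs turned sign. Ythdf3 and Ythdc1 went from 0.81 to -0.09, Ythdc1 and Alkbh5 from -0.65 to 0.12, and Ythdc2 and Fto from -0.52 to 0.18.

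**Figure D3:**
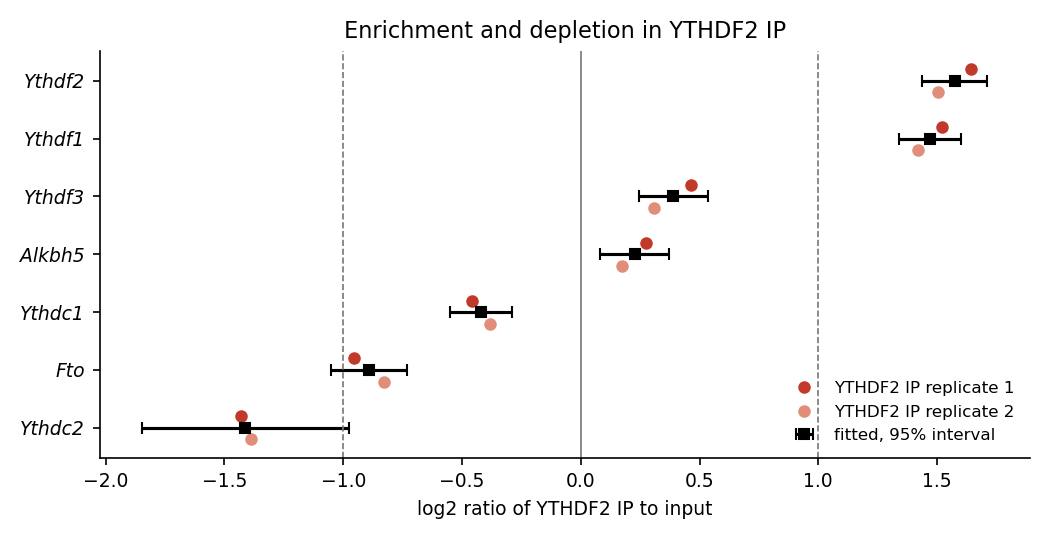
log2 ratio of YTHDF2 IP to input (x axis) for each of the 7 transcripts (y axis). Black squares with bars are the fitted log2 fold changes with 95% intervals, circles are the individual IP libraries and dashed lines mark a 2-fold change. Ythdf1 and Ythdf2 lie to the right of the right line, Ythdc2 lies to the left of the left line and the other 4 lie between them.

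The order of levels per length also changed between input and IP. In the input it ran from Ythdf1 through Ythdc1, Ythdf2, Fto, Ythdf3 and Alkbh5 to Ythdc2, with no replicate to give a spread. In the IP libraries Ythdf2 was second, at 71.3 ± 4.96 RPKM (SD, n = 2), behind Ythdf1 at 115 ± 5.98 RPKM. Ythdc1 (28.1 ± 0.947 RPKM) and Ythdf3 (26.3 ± 2.07 RPKM) came next, and their ranges over the IP libraries overlapped. Alkbh5 (21.2 ± 1.09 RPKM), Fto (12.6 ± 0.742 RPKM) and Ythdc2 (0.600 ± 0.0117 RPKM) followed without overlap. RPKM values were scaled to library totals, so their ratios are slightly larger than the fitted folds, which used TMM factors of 0.957 for the input and 1.02 for both IP libraries. Replicate 1 lay farther from the input than replicate 2 in 7 of 7 genes, against 52.0% of the 12620 tested genes that averaged 100 counts or more. The gaps between the IP libraries were 0.16 or less on the log2 scale in all 7, within the SD of 0.205 over those genes. The median absolute gap over those genes was 0.088. Ythdf1, Ythdf2, Ythdf3, Fto and Alkbh5 had larger gaps than that, and Ythdc1 and Ythdc2 smaller ones.

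Properties of the transcripts that are no part of the rule also differed among the 7 genes. Ythdf1, Ythdf2 and Ythdf3 share an architecture in which 1 long exon holds most of the coding sequence, 90.5%, 91.0% and 89.3% of it. This share was 65.1% in Alkbh5, 41.0% in Fto, 19.2% in Ythdc1 and 6.75% in Ythdc2. The 4 genes with the largest shares were the 4 that were higher in the IP as reported, but this property was chosen after seeing the data. The signs of Ythdf3 and Alkbh5 also depended on the setting. Across 15188 tested genes, which are not independent replicates, the share correlated with the log2 fold change at a Spearman rho of 0.35. In the fifth of genes with the largest shares, 31.3% were enriched and the median log2 fold change was 0.68. In the fifth with the smallest shares, 3.88% were enriched, 21.2% were depleted and the median was -0.40.

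When the trend on this share was removed from the 15188 genes that have one, Ythdf1 stood at 0.73 and Ythdf2 at 0.83, and neither was called enriched. The 3 Ythdf genes have nearly equal shares, so this removal shifts them together and says nothing of the gaps between them. The part of this share in the results was not tested.

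**Figure D4:**
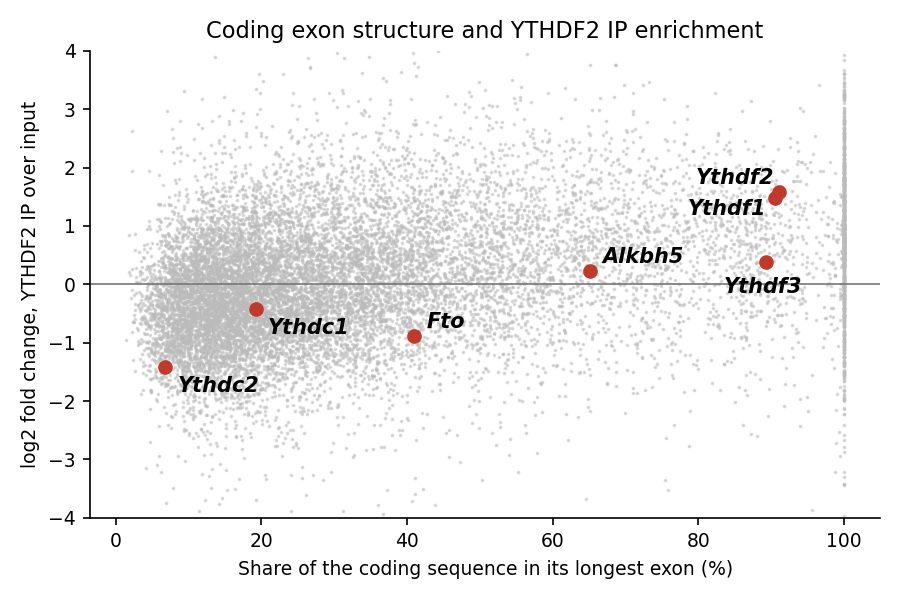
Share of the coding sequence that lies in its longest exon (%, x axis) against the log2 fold change of YTHDF2 IP over input (y axis) for 15188 tested genes (grey) and the 7 readers and erasers (red). Genes beyond the ends of the y axis are not drawn. The 3 Ythdf genes lie at 89.3 to 91.0% but differ in height, and Ythdc2 lies at 6.75%.

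Base composition also differed among the 7 genes, and Ythdf3 had the lowest GC content. The exonic GC content was 38.9% in Ythdf3 (percentile 2.77 of tested genes), 45.7% in Ythdf2 and 49.0% in Ythdf1. It was 41.9% in Ythdc2, 44.3% in Ythdc1, 50.9% in Alkbh5 and 51.5% in Fto. Fto had the highest GC content of the 7. Across 18598 tested genes GC content correlated with the log2 fold change at a Spearman rho of 0.31. With the trend on GC content removed, Ythdf3 stood at 1.11 and was called enriched, beside Ythdf1 and Ythdf2. The gap to Ythdf3 was then 0.64 for Ythdf2 and 0.28 for Ythdf1, and Ythdf1 and Ythdf2 differed by -0.36. In the same fit Ythdc1 stood at -0.12 (edgeR adjusted p = 0.13). The part of GC content in these results was not tested.

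The counts of the 7 genes were little exposed to reads of other loci. No exon of theirs overlapped an exon of another gene, and 4831440D22Rik, which lies within the body of Fto on the opposite strand, had 0 counts in every library. The coding sequences of the Ythdf paralogs were 69.1% to 70.9% identical. Copies elsewhere in the genome of at least 150 bases at 97% identity were found for Ythdc1 only, as 1 copy of 298 bases. The last exon held the stop codon in every gene but Ythdc2.

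Other genes of the m6A pathway were measured in the same fit, from lists of 12 writers, 7 other AlkB homologues, 10 other m6A-binding proteins and 9 partners of the YTH readers. Among the genes listed as m6A writers, 2 of 12 were enriched and 0 were depleted, against 15.2% and 14% of all tested genes. Their median log2 fold change was 0.00 against 0.01 over all tested genes. Rbm15b, an adaptor that guides the writer complex to RNA, was enriched, with 3107 input counts against 19146 and 18789 IP counts. The fit gave 2.57 ± 0.0654 (SE) on the log2 scale (edgeR adjusted p = 1.22e-48). Wtap, which holds the writer core in nuclear speckles, lay on the threshold at 2.01-fold and lost the call under 3 of 13 alternatives.

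Of the 7 other AlkB homologues, 1 was enriched and 1 was depleted, near the 15.2% and 14% of all tested genes, and the list median was -0.24. Alkbh4 was enriched, with 419 input counts against 995 and 1132 IP counts and a fitted log2 value of 1.30 ± 0.145 (SE, edgeR adjusted p = 1.03e-12). Alkbh6 was depleted, with 708 input counts against 249 and 320 IP counts and a log2 value of -1.35 ± 0.167 (SE, edgeR adjusted p = 4.25e-11). Both IP libraries lay on one side of the input for each gene, but the call of Alkbh4 was lost under 3 of 13 alternatives and that of Alkbh6 under 2. The log2 fold changes of the rest were 0.89 for Alkbh2, a DNA repair enzyme, 0.00 for Alkbh3, -0.24 for Alkbh7, -0.52 for Alkbh8, which modifies tRNA, and -0.60 for Alkbh1.

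Among the other m6A-binding proteins, 6 of 10 were depleted and 0 were enriched, against 14% of all tested genes depleted, and the list median was -1.18. The depleted genes were Fmr1 (-1.57), the fragile X protein, the mRNA-stabilising Igf2bp2 (-1.34) and Igf2bp3 (-1.31), and the nuclear Hnrnpc (-1.23), Rbmx (-1.21) and Hnrnpa2b1 (-1.14). Of these 10 transcripts, Prrc2a alone was higher in the IP, at 0.63. With the GC trend removed, 2 of the 10 were depleted, since Hnrnpa2b1, Hnrnpc, Rbmx and Fmr1 lost the call, and the list median was -0.76. With the dispersion fixed at 0.1, 1 was depleted. Hnrnpa2b1 lost the call under 4 of 13 alternatives.

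Of the 9 partners of the YTH readers, 6 were depleted and 0 were enriched, against 14% and 15.2% of all tested genes, with a list median of -1.24. The number depleted was 3 with the GC trend removed, where Rida, Srsf10 and Rbm46 lost the call, and 3 with the dispersion fixed at 0.1, where Srsf3, Srsf10 and Nxf1 lost it. Rida, also named HRSP12, which bridges YTHDF2 to RNase P/MRP, had 1152 input counts against 355 and 453 IP counts. The fit gave -1.55 ± 0.139 (SE) on the log2 scale (edgeR adjusted p = 1.33e-16). Cnot1, the scaffold of CCR4-NOT, had a log2 fold change of -1.56, and the nuclear partners of YTHDC1, Srsf3, Srsf10 and Nxf1, had -1.38, -1.24 and -1.19. Upf1, the helicase of nonsense-mediated decay, was higher in the IP at 0.43, under the fold threshold. Rbm46 was called at -1.77 with 45 input counts against 27 and 0 IP counts, so 1 library decides it. It lost the call under 4 of 13 alternatives.

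The 5 genes whose pattern over the 3 libraries was nearest to that of Ythdf2 were Tspan5, Armc7, Ppp1r14b, Ankrd49 and Rgmb. Nearness was the distance between log2 CPM values, each gene centred on its mean, among 9986 genes of at least 10 CPM. The distances ran from 0.0102 for Tspan5 to 0.0216 for Rgmb, and the folds of the 5 genes ran from 2.94 for Ankrd49 to 3.01 for Ppp1r14b. With only 3 libraries, such a pattern is little more than a fold and the gap between the IP libraries.

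**Figure D5:**
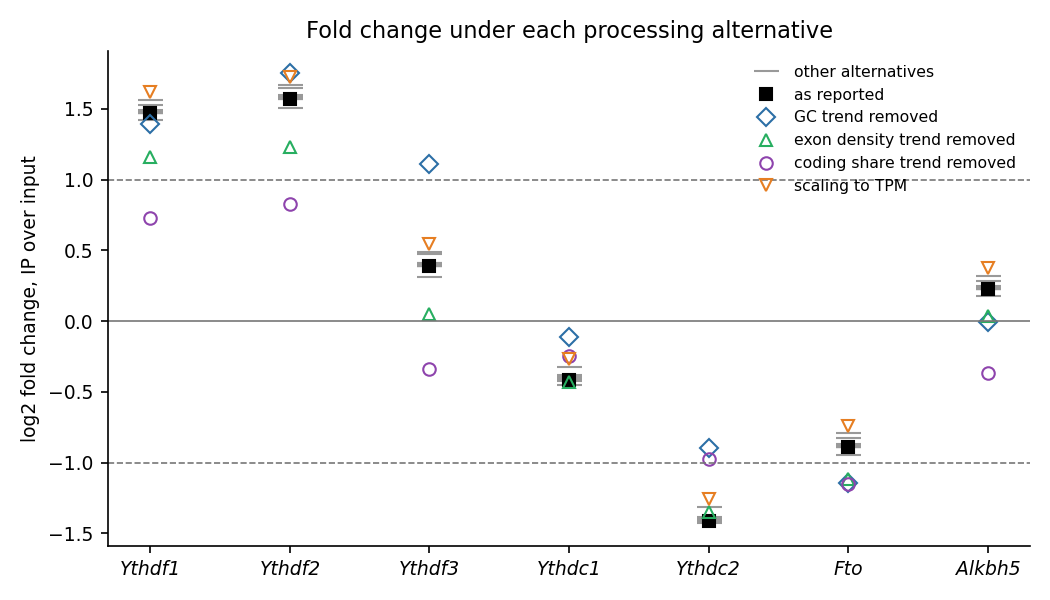
log2 fold change of YTHDF2 IP over input for the 7 transcripts as reported (black squares) and under 15 alternatives of processing. Coloured open symbols mark the removal of trends on GC content, exon density and coding share and the scaling to TPM, and grey dashes mark the other alternatives. Dashed lines mark a 2-fold change, and the widest range is that of Ythdf3, from -0.34 to 1.11.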

How the data were processed

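The values used were raw counts per gene, deposited by the authors as 1 table with exon coordinates on mm10. Per the labels, reads were trimmed with fastp 0.19.4 and aligned with HISAT2 2.2.1, and the header of the table names featureCounts 2.0.3. Libraries were strand-specific, but counting ignored strand, counted each mate of a pair and left out reads of several loci or genes. Columns of the table that belong to no sample used here numbered 0. The Length column deposited by the authors, a sum of exonic bases per gene, gave RPKM.

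Genes were kept with edgeR's filterByExpr, scaled by TMM and tested with edgeR 4.0.16 (glmQLFit and glmQLFTest, robust, R 4.3.3), with Benjamini-Hochberg adjustment over 19601 genes. A gene was called at an adjusted p under 0.05 and a fold over 2. The common dispersion was 0.00538. Intervals of differences between genes used both standard errors. Single-library ratios used an offset of 0.5 counts. Alternatives were run with DESeq2 1.42.0 and other scalings, filters and trends (loess span 0.3). The fit was tested on simulated data. Transcript features came from RefSeq on GRCm38.p6, with Biopython 1.88 and blastn 2.17.0. Proteins were not analysed here.

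The named genes were the 7 readers and erasers, genes overlapping them, the 5 nearest to Ythdf2, the called genes of each list, the other AlkB homologues, and Cnot1, Upf1 and Rida. Prrc2a was named after its value was seen. The rule for the 7 genes uses no measured value, but the genes, the lists and the tests were chosen with earlier results of these data known.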

Additional observations from a re-analysis of the deposited data

How the results depend on the processing

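No paired analysis was possible because only 1 input library was sequenced for the 2 IP libraries. Under the 9 alternatives of scaling, filter, counting and test other than the fixed dispersion and the trends, each of the 7 genes kept its direction and its side of the thresholds. With a dispersion fixed at 0.1, no gene of the 7 was called (0 enriched, 0 depleted): Ythdf1 had 1.47 (adjusted p = 0.0731), Ythdf2 1.57 (0.0550) and Ythdc2 -1.41 (0.0590), and over all genes 1577 were enriched and 1531 depleted against 2973 and 2743. These were their highest adjusted p values over the 13 alternatives with a test. With the GC trend removed, Ythdf3 was 1.11, Ythdc2 -0.90, Fto -1.15 and Alkbh5 -0.0054, the last with its sign turned (adjusted p = 0.956). With the exon density trend removed, Fto was -1.12, 2 genes were depleted, and Ythdf3 (0.05) and Alkbh5 (0.03) had adjusted p of 0.552 and 0.723. With the trend on coding share removed, which was chosen after seeing the data, Ythdf1 was 0.73, Ythdf2 0.83, Ythdc2 -0.97 and Fto -1.15, Ythdf3 (-0.34) and Alkbh5 (-0.37) turned sign, and 0 genes were enriched. The cause of these changes was not tested. Scaling to TPM moved the median of all genes by 0.15 and the share of enriched genes among calls from 52.0% to 62.4%. Leaving out IP replicate 1 or 2 gave 1.42 to 1.53 for Ythdf1, 1.50 to 1.65 for Ythdf2, 0.31 to 0.47 for Ythdf3, -0.45 to -0.38 for Ythdc1, -1.43 to -1.39 for Ythdc2, -0.95 to -0.83 for Fto and 0.18 to 0.28 for Alkbh5, with no test. Input counts were lowest for Rbm46 (45), Armc7 (355), Ythdc2 (400) and Alkbh4 (419) among the genes named with a fold, and the single input limits all of them.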
